A study of Mus musculus with 11 samples.

Results

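A set of 10 genes that mark fibroblasts and the connective tissue they build, *Pdgfra*, *Pdgfrb*, *Ddr2*, *Postn*, *Fstl1*, *Dcn*, *Lum*, *Fap*, *Thy1* and *Sod3*, was followed through all 27 RNA libraries of the study. They are 10 of the 18304 genes counted. They were chosen by their high values in mesenchymal-type (mes) organoids or in tumors, so their levels in those samples are given below as a description, without a test. By the rule used to sort them, 6 genes were raised in both mes organoids and tumors (*Pdgfra*, *Pdgfrb*, *Ddr2*, *Dcn*, *Lum* and *Sod3*) and 4 in tumors but not in mes organoids (*Postn*, *Fstl1*, *Fap* and *Thy1*). A gene counted as raised where every library of the group lay above the highest of 12 libraries of epithelial cultures, and a TBP clone with a total below 200000 counts was shown but not used for that limit.

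The normal samples came from C57BL/6 mice: 3 libraries of oviduct tissue, 3 of tissue of the ovarian surface epithelium (OSE), 3 of oviductal organoids and 2 of OSE organoids. The engineered samples all descended from mice with a *Cas9-P2A-EGFP* cassette in the ROSA26 locus, which makes Cas9 and EGFP in every cell: 3 libraries of unedited Cas9-GFP oviductal organoids, 3 of TBP clones, 2 of mes organoids (T1-mes and T3-mes), 2 of epithelial-type (epi) organoids (T2-epi and T4-epi) and 6 of tumors. TBP clones are oviductal organoid lines grown from picked organoids after transfection with guide RNAs, among them guides to *Trp53* and *Brca1*, and selection with Nutlin-3a, a drug that spares cells without p53 function, and no clone had lost *Brca1* on both alleles. The 6 tumors grew from TBP clones under the skin of female NSG mice, 8 to 12 weeks old at injection, and were sequenced as bulk tissue. NSG mice lack T, B and natural killer cells, but keep their own fibroblasts, vessels, muscle and myeloid cells. Mes and epi organoids were grown out of such tumors in Nutlin-3a, which holds back host cells, and T1-mes and T2-epi came from adjacent tumors of the same clone. T3-mes and T4-epi share a sample record, as T1-mes and T2-epi do. Organoid media contained A83-01, an inhibitor of TGF-beta receptors. Which tumor library, if any, matches which organoid line is not given in the sources used here.

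Fibroblasts are the cells that lay down and remodel the matrix of connective tissue, and most epithelial cells make little of their characteristic proteins. PDGF receptors take up growth signals that epithelial, endothelial and myeloid cells send to them, while DDR2 senses fibrillar collagen. Decorin and lumican bind collagen fibrils, periostin and FSTL1 are secreted into remodeling or injured tissue, FAP and THY1 sit on the cell surface, and SOD3 is the superoxide dismutase of the extracellular space. In tumors such genes are used to follow cancer-associated fibroblasts, and carcinoma cells that have gone through an epithelial-mesenchymal transition may also express part of them.

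Start-site sequences are shown for the members found in the RefSeq promoter table (GRCm38.p6), 4 of 10: a pair raised in both mes organoids and tumors (*Pdgfra*, *Ddr2*) and a pair raised in tumors alone (*Postn*, *Fstl1*). Each line reads 5′ to 3′ on the strand of the gene, over the 250 bases before the RefSeq start, and is ended where an exon of GENCODE begins. The windows are chr5:75152001-75152250 (plus strand) for *Pdgfra*, chr1:170088945-170089194 (minus strand) for *Ddr2*, chr3:54360857-54361106 (plus strand) for *Postn* and chr16:37776805-37776872 (plus strand) for *Fstl1*. Capitals mark matches to the motifs searched on both strands.
Pdgfra: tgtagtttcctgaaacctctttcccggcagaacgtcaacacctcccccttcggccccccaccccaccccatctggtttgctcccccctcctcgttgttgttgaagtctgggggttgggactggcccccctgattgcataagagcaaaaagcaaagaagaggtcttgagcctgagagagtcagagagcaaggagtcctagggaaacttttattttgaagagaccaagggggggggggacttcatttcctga
Ddr2: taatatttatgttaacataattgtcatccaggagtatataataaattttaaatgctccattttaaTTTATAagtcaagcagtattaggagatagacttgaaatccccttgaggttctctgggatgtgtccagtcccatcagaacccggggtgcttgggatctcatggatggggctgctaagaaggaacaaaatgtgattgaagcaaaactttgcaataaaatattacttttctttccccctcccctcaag
Postn: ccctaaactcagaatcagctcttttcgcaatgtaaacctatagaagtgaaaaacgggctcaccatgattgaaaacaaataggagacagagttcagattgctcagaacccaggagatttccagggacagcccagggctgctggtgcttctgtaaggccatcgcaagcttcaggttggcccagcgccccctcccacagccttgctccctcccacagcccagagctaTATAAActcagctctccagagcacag
Fstl1: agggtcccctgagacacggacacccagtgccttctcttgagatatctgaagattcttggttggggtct
The motifs were searched over the whole 250 bases: the TATA box (TATAAA), which was in 12.4% of the 32817 windows of the table, the CCAAT box (CCAAT, 33.8%), the AP-1 motif (TGANTCA, 6.75%), the TEAD motif (CATTCC, 12.6%) and the E-box bound by ZEB and SNAIL factors (CACCTG, 17.2%). *Postn* held a TATAAA that began 26 bases before the start, and *Ddr2* held the reverse complement of TATAAA 185 bases before its start. No other match was found in the 4 windows, so neither pair shared a motif that the other pair lacked. Over the whole 250 bases, G and C made up 54.4% for *Pdgfra*, 37.6% for *Ddr2*, 52.0% for *Postn* and 68.0% for *Fstl1*, against a median of 52.4% over all windows. For *Fstl1*, 182 of the 250 bases lie in annotated exons and are not printed, so its 68.0% is not that of the stretch shown. The *Ddr2* start used by RefSeq, at 170088944, is also a transcript start in GENCODE. It lies inside the gene, whose 5′ end on the minus strand is at 170110762, so the window is not upstream of the whole gene. The *Fstl1* start lies 182 bases behind a GENCODE start.

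On GRCm38, GENCODE places *Ddr2* on chromosome 1 (169972307 to 170110762), *Fap* on 2 (62500943 to 62574075), *Postn* on 3 (54361109 to 54391037), *Sod3* on 5 (52363791 to 52371418), *Pdgfra* on 5 (75152292 to 75198215), *Thy1* on 9 (44043384 to 44048579) and *Fstl1* on 16 (37776873 to 37836514). *Dcn* (97479609 to 97518143) and *Lum* (97565128 to 97572703) are neighbors on chromosome 10, on the plus strand, 46984 bases apart with no annotated gene between them. *Pdgfra* and *Ddr2* are overlapped by annotated genes on the opposite strand, and the authors counted reads only in the direction of the transcript. *Pdgfra* is also overlapped by *Mir7025* on its own strand, which counting by direction does not separate.

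RNA was measured by CEL-Seq2, which tags and counts the 3′ ends of transcripts. Levels are normalized counts (CPM), which set each count against the total of its library, scaled by the TMM factors of edgeR over all libraries, and levels of different genes are not compared with each other. The shallowest library, TBP clone 1, had 82239 counts in total, the next 600579, and the deepest, TBP clone 3, 4531767. A count of 0 allows up to 3 counts, which is 34.1 CPM in TBP clone 1 and 0.670 to 5.21 CPM in the other libraries. Such limits cover counting error only, since copies of the same molecule were not merged. In bulk RNA, fewer cells of a type and less RNA per cell cannot be told apart.

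**Figure D1:**
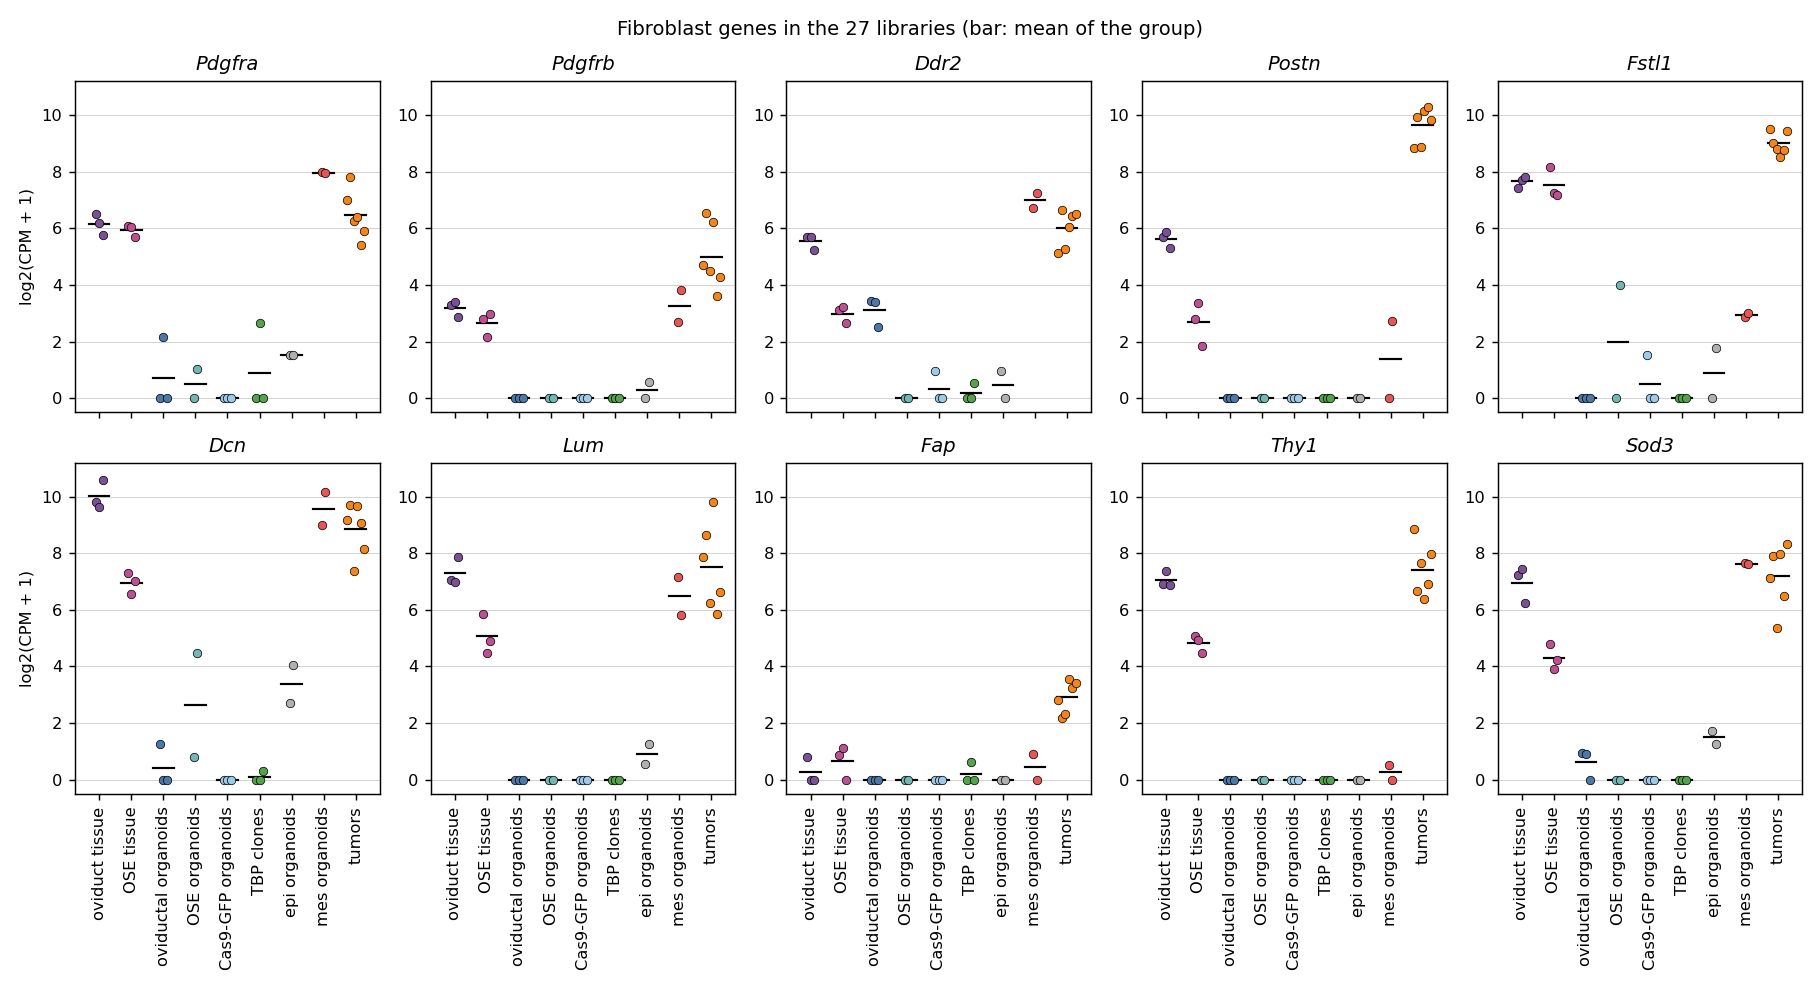
Levels of the 10 genes as log2(CPM + 1) on the vertical axis, with a point per library, the 9 groups on the horizontal axis and a bar at each group mean. *Pdgfra*, *Dcn*, *Lum* and *Sod3* lie higher in every tissue, mes organoid and tumor library than in every epithelial culture, while *Postn*, *Fstl1*, *Fap* and *Thy1* lie higher in each of the 6 tumors than in both mes organoids.

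In the 13 libraries of epithelial cultures, that is oviductal, OSE and Cas9-GFP organoids, TBP clones and epi organoids, the 10 genes were almost silent. *Postn* and *Thy1* had no count in any of the 13, *Pdgfrb* and *Fap* had none in 12, and *Lum* had none in 11. Exceptions above 3 counts were *Ddr2* in all 3 oviductal organoid lines (4.65, 9.43 and 9.91 CPM), *Dcn* (21.0 CPM) and *Fstl1* (14.8 CPM) in OSE organoid line 2, *Pdgfra* in oviductal organoid line 2 (3.43 CPM) and TBP clone 2 (5.35 CPM), and a few genes in the epi organoids given below. The summed level of the 10 genes was 1220 CPM in T1-mes, 1811 CPM in T3-mes, 1528 to 3756 CPM in tumors, 1660 to 2312 CPM in oviduct tissue, 396.6 to 647.2 CPM in OSE tissue and at most 36.8 CPM in any epithelial culture.

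The receptor gene *Pdgfra* stood at 253.8 CPM in T1-mes and 244.2 CPM in T3-mes. Tumors held 41.9 CPM (Tumor 5) to 221.1 CPM (Tumor 2), with a median of 79.3 CPM, so that all 6 lay below both mes lines (log2 difference of tumors minus mes organoids -1.32, SE 0.52). Oviduct tissue had 89.9, 72.7 and 52.6 CPM and OSE tissue 66.4, 64.5 and 50.7 CPM, ranges that overlapped with each other and with the tumors. *Pdgfra* was thus highest in the cultured mes lines, then in tumors and the tissues without a gap, and then, after a gap, in epithelial cultures.

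*Ddr2*, the gene of the collagen receptor, had the same order at its upper end. It was at 104.9 CPM in T1-mes and 151.8 CPM in T3-mes, and at 33.6 CPM (Tumor 1) to 99.1 CPM (Tumor 2) in tumors, with a median of 75.4 CPM (log2 difference of tumors minus mes organoids -0.93, SE 0.41). All tumors lay below both mes lines, and they overlapped with oviduct tissue (51.1, 50.7 and 36.3 CPM). OSE tissue was lower, at 7.66, 8.21 and 5.22 CPM, and overlapped with the oviductal organoids.

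*Pdgfrb*, which encodes the PDGF receptor of pericytes and many fibroblasts, had few counts in mes organoids. T1-mes held 12 counts (5.38 CPM) and T3-mes 28 counts (13.2 CPM), which met the rule since epithelial cultures had at most 1 count. Tumors ranged from 11.3 CPM (Tumor 5) to 93.0 CPM (Tumor 2) with a median of 23.2 CPM, and 5 of 6 lay above both mes lines (log2 difference 2.07, SE 0.92). All 6 tumors exceeded all 6 tissue libraries, which had 3.52 to 9.60 CPM.

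*Dcn*, the gene of decorin, was at 506.7 CPM in T1-mes and 1138 CPM in T3-mes. Tumors held 165.0 CPM (Tumor 3) to 841.3 CPM (Tumor 2), median 556.5 CPM, within or below the span of the mes lines (log2 difference -0.64, SE 0.56). Its highest mean was in oviduct tissue, at 899.5, 800.6 and 1529 CPM, which overlapped with the mes organoids, and no tumor exceeded all tissue libraries. OSE tissue, at 157.6, 92.7 and 128.5 CPM, lay just below the lowest tumor.

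*Lum*, the lumican gene that neighbors *Dcn*, differed from it in the order of the lines: T1-mes had 142.6 CPM and T3-mes 55.6 CPM. Tumors showed the widest span of the 10 genes, from 56.8 CPM in Tumor 5 to 892.4 CPM in Tumor 4, a ratio of 15.7, with a median of 165.3 CPM. The log2 difference of tumors minus mes organoids was 1.54 (SE 1.09), 3 of 6 tumors lay above both mes lines, and none lay below them. Levels in oviduct tissue, at 130.8, 124.7 and 234.3 CPM, overlapped with both. *Kera*, another gene of the same proteoglycan family on chromosome 10, was at 0 in both mes lines and passed 3 counts in 1 tumor (19.3 CPM).

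*Sod3* was nearly equal in the mes lines, at 199.1 and 195.1 CPM. Tumors lay on either side of them, from 40.1 CPM (Tumor 3) to 318.7 CPM (Tumor 6) with a median of 187.3 CPM, 3 above and 3 below (log2 difference -0.17, SE 0.63). Oviduct tissue had 149.1, 171.4 and 73.9 CPM, and OSE tissue had 26.4, 14.1 and 17.8 CPM, below every tumor.

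The pattern was different for the 4 remaining genes. *Postn*, the gene of the matrix protein periostin, had no count in T1-mes and 12 counts (5.66 CPM) in T3-mes. Tumors held 454.6 CPM (Tumor 1) to 1230 CPM (Tumor 5), median 936.4 CPM, a log2 difference to the mes organoids of 8.21 (SE 1.17). All tumors also exceeded oviduct tissue (50.4, 57.6 and 38.8 CPM) and OSE tissue (5.96, 9.39 and 2.61 CPM), and the ranges of these 3 groups were apart from each other.

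*Fstl1*, which encodes a secreted follistatin-like glycoprotein, was low but not absent in mes organoids, at 6.28 CPM (14 counts) and 7.07 CPM (15 counts). Both values lay below the 14.8 CPM of OSE organoid line 2, and with the median of the epithelial cultures as the limit *Fstl1* became the 7th gene raised in mes organoids. In tumors it ranged from 366.0 CPM (Tumor 4) to 731.2 CPM (Tumor 1), with a median of 479.2 CPM and a ratio of highest to lowest of 2.00, the narrowest of the 10 genes. The log2 difference of tumors minus mes organoids was 6.28 (SE 0.44). Oviduct tissue (170.2, 209.7 and 225.6 CPM) and OSE tissue (287.0, 152.5 and 144.2 CPM) overlapped with each other and lay below the tumors.

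*Thy1*, a surface marker of fibroblasts that T cells and neurons also carry, had 1 count in T1-mes and none in T3-mes. In tumors it stood at 83.1 CPM (Tumor 4) to 459.0 CPM (Tumor 1), median 159.0 CPM. The tumor mean was at least 145-fold higher than the mes organoids at the limit of 3 counts per library. Oviduct tissue, at 119.8, 163.1 and 115.3 CPM, overlapped with the tumors, and OSE tissue had 32.4, 29.3 and 21.4 CPM.

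*Fap*, the gene of fibroblast activation protein, a surface protease of activated stroma, was scarce everywhere. No tissue library and no mes line passed 3 counts of it. Tumors had 4 counts (3.51 CPM, Tumor 2) to 26 counts (8.38 CPM, Tumor 5), and their highest level was 10.6 CPM in Tumor 4 (11 counts). The tumor mean was at least 5.06-fold higher than the mes organoids at the limit of 3 counts per library. At this depth, a level of *Fap* in mes organoids below about 1.4 CPM was not detectable.

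**Figure D2:**
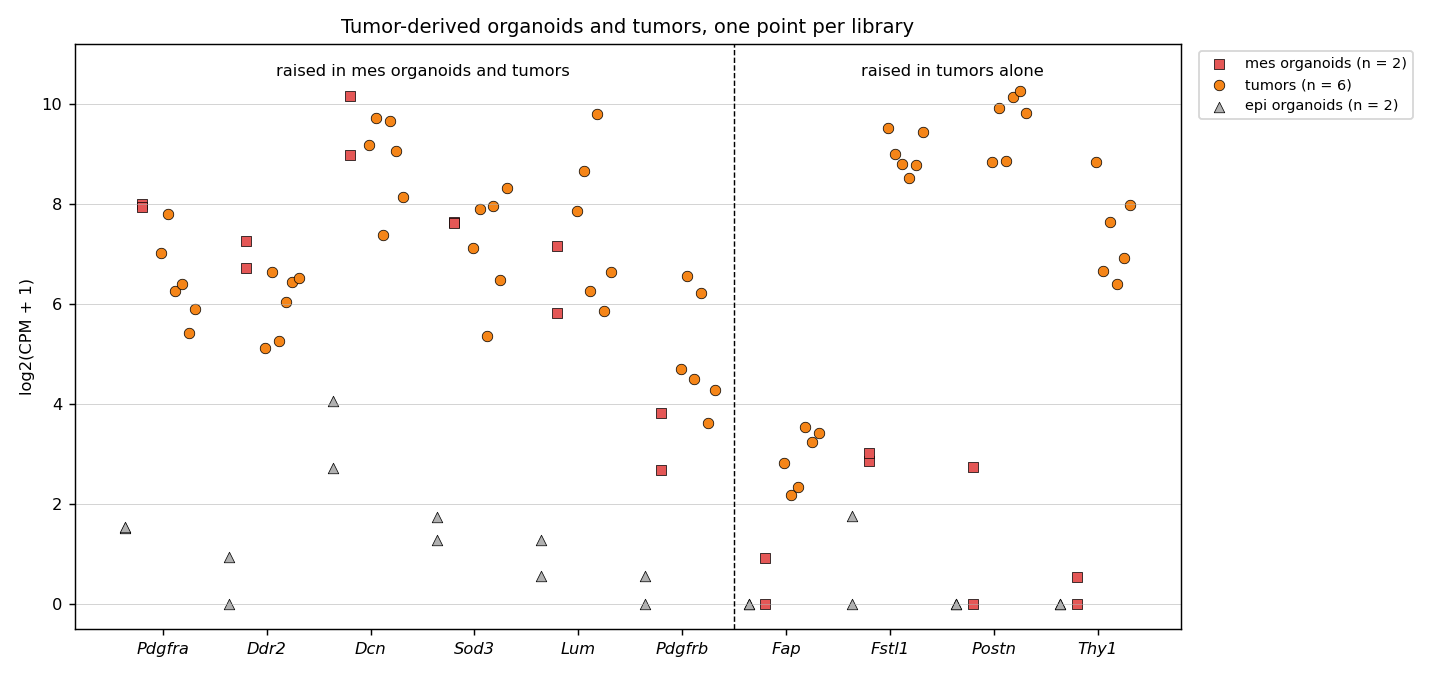
Levels as log2(CPM + 1) on the vertical axis for the 10 genes on the horizontal axis, with squares for mes organoids, circles for tumors and triangles for epi organoids, a symbol per library. Left of the dashed line the mes lines lie above all tumors for *Pdgfra* and *Ddr2* and overlap with them for the others. For *Pdgfrb* 5 of 6 tumors lie above both mes lines, and for *Lum* 3 of 6. Right of the line the tumors lie above both mes lines for all 4 genes.

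Between mes organoids and tumors, the ranges of *Pdgfrb*, *Dcn*, *Lum* and *Sod3* overlapped, *Pdgfra* and *Ddr2* were higher in both mes lines than in every tumor, and *Postn*, *Fstl1*, *Fap* and *Thy1* were higher in every tumor than in both mes lines. Since the genes were chosen on these samples, nothing is read from these ranges, and the share of all genes with ranges apart was not counted. By the edgeR test, a different criterion, 8.69% of 11278 genes were higher and 6.2% lower in tumors (adjusted p under 0.05). Tumors did not rank alike for all genes. Tumor 2 was the highest of the 6 for *Pdgfra*, *Pdgfrb*, *Ddr2* and *Dcn* but the lowest for *Fap*. Tumor 1 was the highest for *Fstl1* and *Thy1* and the lowest for *Ddr2* and *Postn*, and Tumor 4 was the highest for *Lum* and *Fap* and the lowest for *Fstl1* and *Thy1*.

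Epi organoids, grown from tumors in the same way, gave the nearest comparison for the mes lines. *Pdgfra* was at 1.85 CPM in T2-epi and 1.90 CPM in T4-epi, a log2 difference of mes minus epi of 7.01 (SE 0.44). *Dcn* was at 5.56 and 15.7 CPM (log2 difference 6.29, SE 0.76) and *Sod3* at 2.32 and 1.42 CPM (log2 difference 6.68, SE 0.47). *Lum* and *Ddr2* did not pass 3 counts in either epi line, and were at least 70.1-fold and 91.8-fold higher in mes organoids. *Fstl1* was at 0 in T2-epi and had 5 counts (2.37 CPM) in T4-epi, a log2 difference of mes minus epi of 2.45 (SE 1.12). The background of this comparison was 1% of 9775 genes higher and 0.123% lower in mes organoids, and nothing is read from the members' differences. As a share of the level in T1-mes, T2-epi held 0.730% for *Pdgfra*, 1.10% for *Dcn*, 1.16% for *Sod3* and 0.325% for *Lum*, and T4-epi held 0.777%, 1.38%, 0.729% and 2.56% of the levels in T3-mes. What these few counts in the epi lines came from was not tested.

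The mes lines were not free of epithelial transcripts. Of 12 epithelial markers, all 12 passed 3 counts in at least 1 of the lines and 11 in both, and their summed level was 3917 CPM in T1-mes and 387.0 CPM in T3-mes, against 5223 and 5713 CPM in the epi lines. *Cdh1*, the gene of E-cadherin, was at 813.5 CPM in T1-mes and 66.0 CPM in T3-mes, and *Epcam* at 234.5 and 27.8 CPM. *Pdgfra* and *Sod3* were nevertheless at almost equal levels in these lines. Among markers of other cell types, 8 of 13 myeloid markers, including *Emr1* (also called *Adgre1*), *Lyz2*, *Itgam* and *Tyrobp*, 6 of 10 endothelial markers, including *Pecam1*, *Cdh5* and *Emcn*, and 6 of 8 pericyte markers, including *Rgs5* and *Cspg4*, had no count in either mes line. Summed levels in the mes lines were 27.3 to 129.6 CPM for the myeloid list, 19.3 to 19.7 CPM for the endothelial list and 18.4 to 20.3 CPM for the pericyte list. In the epi lines these sums were 258.8 to 321.7, 3.24 to 9.02 and 59.3 to 66.4 CPM. Most of each sum in T1-mes and T3-mes came from a single gene. These were *Cd14* (105.8 and 22.6 CPM), *Plvap* (16.6 and 15.1 CPM) and *Notch3* (18.4 and 19.3 CPM).

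Tumors contained transcripts of many cell types. All 13 myeloid markers passed 3 counts in every tumor (summed level 1605 to 4493 CPM), as did 8 of 10 endothelial markers (103.5 to 275.5 CPM), 5 of 8 pericyte markers (122.7 to 329.9 CPM), 4 of 8 smooth muscle markers (219.3 to 1059 CPM), 6 of 7 skeletal muscle markers (61.0 to 10847 CPM), 2 of 7 adipocyte markers (39.1 to 875.0 CPM) and 4 of 12 epithelial markers (206.7 to 3453 CPM). Tumor 5, which was highest for *Postn* and lowest for *Pdgfra*, *Pdgfrb* and *Lum*, had the highest skeletal muscle (10847 CPM) and pericyte (329.9 CPM) sums. Of that pericyte sum, 249.6 CPM came from the single gene *Des*, so it does not stand for the whole list. Tumor 3, which was lowest for *Dcn* and *Sod3*, had the highest epithelial sum (3453 CPM), and Tumor 1, highest for *Fstl1* and *Thy1*, the highest smooth muscle and adipocyte sums. Tumor 2 had the highest myeloid sum (4493 CPM). The part of these cell types in the tumor levels of the 10 genes was not tested.

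**Figure D3:**
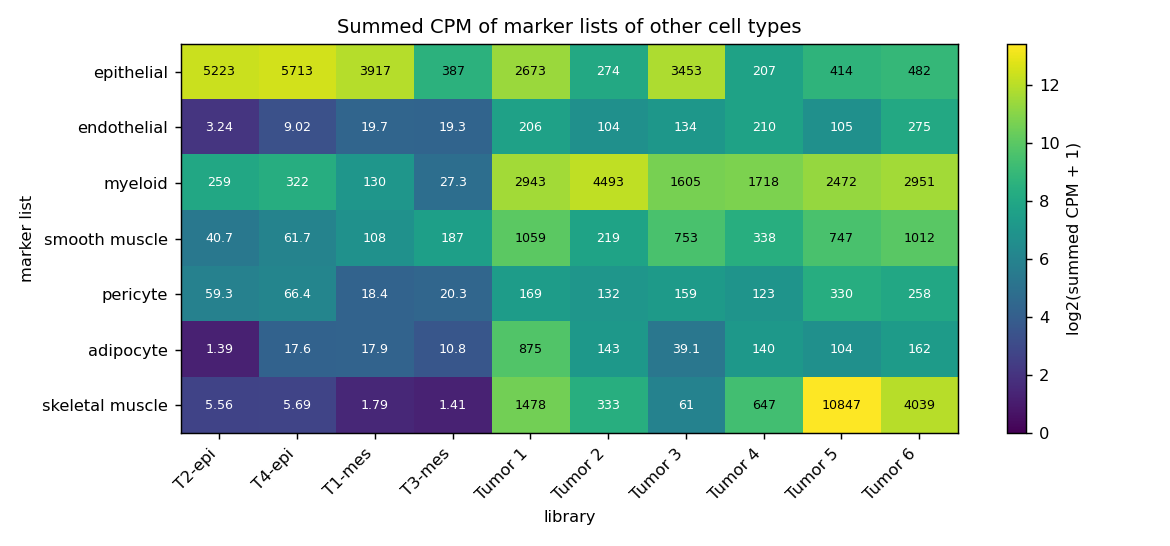
Summed CPM of 7 lists of marker genes (vertical axis) in the epi organoids, mes organoids and tumors (horizontal axis, a column per library), with the value printed in each cell and the color showing log2(summed CPM + 1). T1-mes is close to the epi lines in its epithelial sum (3917 CPM) and T3-mes is not (387.0 CPM), and every tumor exceeds the 4 organoid lines in its myeloid, endothelial and skeletal muscle sums.

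Other genes of the same pathways, which were not among the 10, could be tested between these groups with the quasi-likelihood test of edgeR and Benjamini-Hochberg adjustment over all genes. These lists were chosen with earlier results of these data known. Genes such as *Mmp2* and *Fbln1* passed the filter on low counts through the mes libraries, in which they are high. In the comparisons with tumors, genes such as *Igf1* passed it through the tumors. The counts of calls are therefore a description, and their direction is not independent evidence. Of the 22 general fibroblast genes, 8 passed the filter between mes and epi organoids, 4 were called higher in mes organoids and none lower. These were *S100a4* (log2 difference 6.47, SE 0.47, adjusted p = 0.0236), the intermediate filament gene *Vim* (6.14, SE 0.70, adjusted p = 0.0267), the gelatinase gene *Mmp2* (6.79, SE 0.59, adjusted p = 0.0236) and the fibulin gene *Fbln1* (at least 33.6-fold, adjusted p = 0.0236). Among small leucine-rich proteoglycans, the family of *Dcn* and *Lum*, 2 of 3 tested rose, *Bgn* (6.62, SE 0.86, adjusted p = 0.0332) and *Prelp* (at least 35.3-fold, adjusted p = 0.0257), and of 6 matricellular genes tested 1 rose, *Sparc* (6.24, SE 0.87, adjusted p = 0.0393). The median log2 difference of the tested genes was 5.46 in the fibroblast list and 6.15 in the proteoglycan list. No gene of the PDGF ligand, discoidin domain and DPP4, inflammatory fibroblast or superoxide dismutase lists, nor of the 8 marker lists, was called. With the sample record of each mes and epi pair as a block, 2.17% of genes were higher and 0.286% lower, and 5 of 8 fibroblast, 3 of 3 proteoglycan, 3 of 6 matricellular and 2 of 5 inflammatory fibroblast genes (*Ccl2* and *Ccl7*) were called higher. The counts depended on T1-mes: without it, 748 genes were higher (7.16%) and 710 lower (6.8%) instead of 98 and 12. The calls were then 8 of 13 fibroblast, 3 of 4 proteoglycan, 5 of 8 matricellular, 2 of 5 inflammatory fibroblast and 1 of 3 superoxide dismutase genes higher, with 1 endothelial and 1 smooth muscle marker, and lower were 12 of 12 epithelial markers, 2 of 3 PDGF ligands, 1 of 5 genes of the discoidin domain and DPP4 list, 1 inflammatory fibroblast gene, 1 of 4 myeloid markers and 1 pericyte marker.

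Between tumors and mes organoids, where 8.69% of all genes were higher and 6.2% lower, 10 of 22 general fibroblast genes were higher in tumors and none lower. The leading ones were *Col15a1*, a basement membrane collagen gene (at least 120-fold, adjusted p = 0.00139), the growth factor gene *Igf1* (at least 28.9-fold, adjusted p = 0.00172), the microfibril gene *Mfap5* (log2 difference 7.38, SE 1.06, adjusted p = 0.00354) and *Fbln2* (4.08, SE 0.61, adjusted p = 0.00422). *Vim*, *S100a4* and *Mmp2* were in the list too, with medians of 613.5, 1817 and 296.8 CPM in tumors and means of 564.6, 1555 and 188.4 CPM in mes organoids, and *Fbln1* had 36.7 CPM in tumors against 47.0 CPM. Of 11 matricellular genes tested, 4 rose, *Sparcl1*, *Smoc2*, *Tgfbi* and the tenascin gene *Tnc* (at least 164-fold, adjusted p = 0.0035), and *Thbs2*, the thrombospondin 2 gene, fell by 3.07 on the log2 scale (SE 0.60, adjusted p = 0.0124). Of 7 proteoglycan genes, *Podn* and *Aspn* rose (adjusted p = 0.00344 and 0.0283), and of 7 inflammatory fibroblast genes, *Cxcl1* fell by 2.69 on the log2 scale (SE 0.68, adjusted p = 0.0305). Of 3 PDGF ligands, *Pdgfb* rose (4.87, SE 0.49, adjusted p = 0.00139). Markers of other cells rose as well: 11 of 13 myeloid, 7 of 8 endothelial, 4 of 5 smooth muscle (the remaining *Smtn* fell), 4 of 5 pericyte and 4 of 7 skeletal muscle markers. Without T1-mes, with 4.44% of all genes higher and 3.75% lower, the counts higher in tumors were 8 of 22 for general fibroblast genes, 4 of 12 for matricellular genes, 1 of 8 for proteoglycans, 1 of 3 for PDGF ligands, 12 of 13 for myeloid, 3 of 9 for endothelial, 2 of 5 for pericyte, 1 of 6 for smooth muscle and 0 of 7 for skeletal muscle markers. Without it, 1 matricellular gene was lower, and no inflammatory fibroblast gene or smooth muscle marker was, so that the calls of *Cxcl1* and *Smtn* were lost.

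Tumors and the TBP clones they grew from differed for nearly all of these genes. Of 22 general fibroblast genes 21 were higher in tumors, as were 6 of 7 proteoglycan and 9 of 11 matricellular genes, with a background of 20.1% of 10473 genes higher and 11.7% lower. Of the 22, 13 had at most 3 counts in every clone and passed the filter through the tumors, as did 6 of 7 skeletal muscle markers. The other lists, taken before the filter, also held genes with at most 3 counts in every clone. They were 10 of 10 proteoglycan, 8 of 13 matricellular and 8 of 11 inflammatory fibroblast genes. Among markers they were 8 of 13 myeloid, 7 of 10 endothelial, 7 of 8 smooth muscle, 7 of 8 pericyte and 7 of 7 adipocyte genes. Such genes could hardly be called lower, so these counts are a description. The median log2 difference of the tested fibroblast genes was 8.06, against 0.16 for all genes tested. PDGF ligands moved in opposite directions: *Pdgfb* (log2 difference 2.51, SE 0.37, adjusted p = 6.7e-04) and *Pdgfc* (2.23, SE 0.55, adjusted p = 0.0105) rose, while *Pdgfa* fell by 2.38 on the log2 scale (SE 0.49, adjusted p = 0.00406). Markers of other cell types rose together with them, 11 of 13 myeloid, 6 of 8 endothelial, 4 of 5 smooth muscle, 4 of 5 pericyte, 7 of 7 skeletal muscle and 2 of 3 adipocyte markers, and 3 of 12 epithelial markers fell (*Pax8*, *Cldn4* and *Cldn3*). Of 6 inflammatory fibroblast genes 5 rose, led by the chemokine gene *Ccl2* (at least 62.2-fold, adjusted p = 5.4e-04), and of 5 genes of the discoidin domain and DPP4 list *Dpp8* and *Dpp7* rose. Of the superoxide dismutase list, *Sod1* fell by 0.93 on the log2 scale (SE 0.29, adjusted p = 0.0306), and *Sod2* did not pass (0.24, SE 0.27, adjusted p = 0.538). Without TBP clone 1, whose total was 82239, the counts were 20 of 22 fibroblast, 6 of 7 proteoglycan, 9 of 11 matricellular and 11 of 13 myeloid genes higher, and 1 of 12 epithelial markers lower. The 10 members themselves were at most at 10 counts in any clone, and at 0 in all 3 clones for *Pdgfrb*, *Postn*, *Fstl1*, *Lum*, *Thy1* and *Sod3*.

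The normal tissues were not used to choose the 10 genes, so the difference between oviduct and OSE tissue was tested. Of the 8 genes that passed the filter on low counts, 6 were higher in oviduct tissue and none lower, against 26.9% of 8787 genes higher and 24.3% lower. Of these 6, *Postn* and *Ddr2* passed it only through the oviduct libraries, in which they are high, so their direction is not independent evidence. *Postn* differed most, at 48.9 ± 9.45 CPM in oviduct against 5.99 ± 3.39 CPM in OSE tissue (SD, n = 3 each), a log2 difference of 3.19 (SE 0.36). *Dcn* followed, with 1076 ± 395.0 against 126.3 ± 32.5 CPM (3.07, SE 0.26, edgeR adjusted p = 1.4e-07), then *Ddr2* (2.77, SE 0.30) and *Sod3* (2.74, SE 0.30). *Thy1* (2.27, SE 0.22) and *Lum* (2.16, SE 0.31) differed less. *Pdgfra* did not pass, at 71.7 ± 18.6 against 60.5 ± 8.60 CPM (0.28, SE 0.21, edgeR adjusted p = 0.304), nor did *Fstl1*, at 201.8 ± 28.5 against 194.6 ± 80.1 CPM (0.04, SE 0.23, edgeR adjusted p = 0.910). *Pdgfrb* and *Fap* were too low to be tested.

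**Figure D4:**
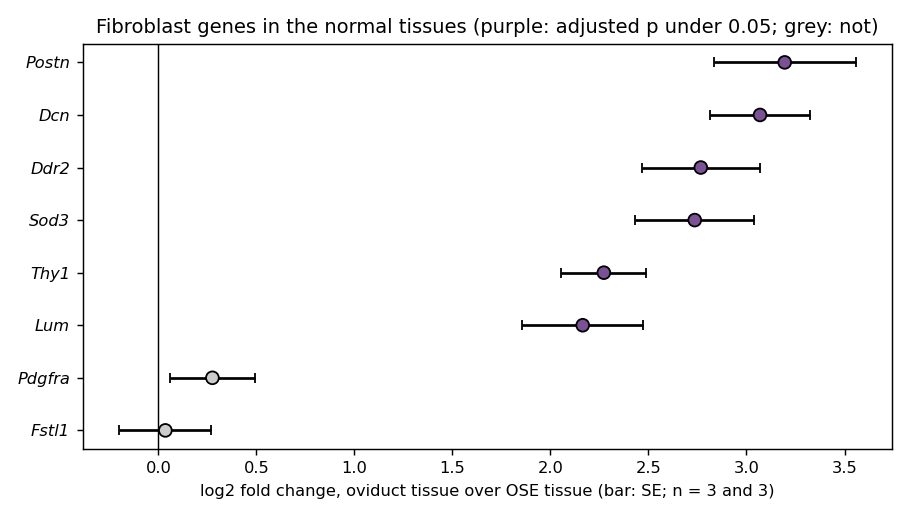
Log2 fold change of oviduct tissue over OSE tissue on the horizontal axis for the 8 tested genes on the vertical axis, with bars for the standard error and purple points where the adjusted p was under 0.05. *Postn*, *Dcn*, *Ddr2*, *Sod3*, *Thy1* and *Lum* lie between 2.16 and 3.19, and *Pdgfra* and *Fstl1* lie near 0. *Postn* and *Ddr2* passed the filter on low counts only through oviduct tissue.

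The cell types of these tissues differed too. The samples labelled OSE tissue held granulosa and steroidogenic markers at 9619 to 11697 CPM in sum, with all 9 listed genes above 3 counts in every library, against 68.7 to 290.6 CPM in oviduct tissue, and epithelial markers at 452.0 to 556.1 against 2075 to 2526 CPM. Smooth muscle markers summed to 5881 to 7222 CPM in oviduct and 590.2 to 821.8 CPM in OSE tissue, and all 8 were called higher in oviduct, as were 5 of 5 pericyte and 9 of 9 myeloid markers tested. The share of these cells in the differences of the 6 genes was not tested. Of 19 general fibroblast genes tested, 11 were higher in oviduct tissue (*Gsn*, *Dpt*, *Cd34* and *Fbln2* leading) and 3 lower (*Pcolce*, *Fbln1* and *Cygb*). Of 5 proteoglycans 4 were higher and none lower, and of 10 matricellular genes 3 were higher (*Sparcl1*, *Tgfbi*, *Thbs2*) and 5 lower (*Cyr61*, *Thbs1*, *Ctgf* and *Smoc2* leading).

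Organoids held far less of these genes than the tissues they were derived from. Members passed the filter on low counts through the tissue libraries, in which they are high, and the epithelial cultures set the limit by which the members were sorted, so their differences are given as a description, with no test. The background was 18.7% of 9477 genes higher and 24.2% lower in oviductal organoids, and 14.5% of 10232 genes higher and 18.6% lower in OSE organoids. In oviductal organoids *Dcn* was at least 537-fold lower than in oviduct tissue, *Fstl1* at least 100.4-fold, *Lum* at least 81.4-fold, *Thy1* at least 65.9-fold, *Sod3* at least 65.1-fold and *Postn* at least 24.3-fold. *Pdgfra* fell by 6.24 on the log2 scale (SE 0.63). *Ddr2* kept the most, with 7.996 ± 2.91 CPM in organoids against 46.1 ± 8.43 CPM in tissue (SD, n = 3 each), where it fell by 2.498 on the log2 scale (SE 0.34). *Ddr1*, the epithelial relative of *Ddr2*, did not pass in the same comparison (-0.25, SE 0.19, adjusted p = 0.304).

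In OSE organoids *Pdgfra* was at least 31.5-fold lower than in OSE tissue, *Lum* at least 18.5-fold, *Thy1* at least 14.4-fold and *Sod3* at least 10.1-fold. *Dcn* was at 0.755 CPM in line 1 and 21.0 CPM in line 2 and fell by 3.41 on the log2 scale (SE 0.86). *Fstl1* was at 0 in line 1 and 14.8 CPM in line 2 and fell by 4.55 on the log2 scale (SE 0.98). For both genes line 2 held nearly all of the counts. *Pdgfrb*, *Ddr2* and *Postn* were at 0 in both lines and at least 2.81-fold, 3.66-fold and 3.12-fold lower. Between oviductal and OSE organoids, where 0.0864% of 9257 genes were higher and 0% lower, *Ddr2* alone passed the filter on low counts, at 4.65 to 9.91 CPM against 0 in both OSE lines (at least 4.26-fold).

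The genes whose levels ran most like those of each member were ranked by Pearson's r of log2(CPM + 1) over 26 libraries, leaving out TBP clone 1, among 8729 other genes with a mean of at least 10 CPM. The libraries share groups, so that any genes high in tissues and tumors resemble each other, and r is given as a description. Matrix genes were among the nearest 3 of several members: *Sparc*, *Col6a1* and *Col3a1* for *Dcn* (r = 0.97, 0.97 and 0.96), *Prelp* and *Col6a3* beside *Cmklr1*, a chemoattractant receptor gene of macrophages and other cells, for *Lum* (0.98, 0.97 and 0.97), and *Col6a3* and *Col1a1* beside *Cmklr1* for *Pdgfrb* (0.98, 0.97 and 0.98). *Pdgfra* lay nearest to *Bgn*, *Rcn3* and *Zcchc24* (0.96, 0.96 and 0.95), *Ddr2* to *Ak1*, *Dse* and *Glipr2* (0.95, 0.94 and 0.93), and *Sod3* to the transcription factor genes *Prrx1* and *Twist2* and to *Bgn* (0.97, 0.97 and 0.97). Genes of myeloid cells were among the nearest of others: *Laptm5*, *Emr1* and *Ccl12* for *Postn* (0.98, 0.98 and 0.98), *C1qc* beside *Gng11* and *Entpd1* for *Thy1* (0.98, 0.99 and 0.98), and *Msr1* beside the muscle genes *Myh1* and *Cox6a2* for *Fap* (0.95, 0.94 and 0.94). *Fstl1* lay nearest to *Prkcb*, *Mfap5* and *Cdh11* (0.97, 0.97 and 0.96). The sorting of the members, by levels in mes organoids and tumors, itself bears on which genes resemble them. With Spearman's rho the nearest 3 genes shared 0 to 2 names with these for each member, so the single names depend on the measure. Among the 10 themselves, r was 0.97 between *Lum* and *Sod3*, 0.95 between *Dcn* and *Lum*, 0.95 between *Fstl1* and *Thy1* and 0.55 between *Dcn* and *Fap*.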

How the data were processed

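RNA of 27 samples was sequenced by CEL-Seq2. The authors aligned reads to GRCm38 with BWA, counted uniquely mapped reads in the direction of the transcript and deposited raw counts per gene, with no correction by molecular identifiers and no normalization. The submitters' processing notes also name DESeq2 1.18.0, and no output of it was used here. Each sample record holds 2 or 3 libraries, and groups came from the labels. The full list of genes targeted in the TBP clones is not reported here. A spike-in row (1 count) and an eGFP row (3 counts, in 1 library) were left out of totals and tests.

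Differences between groups were tested by quasi-likelihood in edgeR 4.0.16 (glmQLFit and glmQLFTest, TMM factors, filterByExpr, Benjamini-Hochberg adjustment over all genes tested, threshold 0.05) in R 4.3.3, on the libraries compared. Standard errors were derived from the log2 fold change and its F value. Where all libraries of a group had at most 3 counts, the fold is a bound against 3 counts per library. The code was tested on simulated data. The members and gene lists were chosen with earlier results of these data known. Named genes were the 10 members, and up to 4 list genes per comparison with the smallest adjusted p, and the 3 genes most like each member. The table paired gene symbols with counts, and *Amh* and *Epyc* of the lists were not in it. Labels numbered libraries within groups, and libraries of the same number did not deviate together (r at most 0.0893), so they were not paired in the main fits. Mes and epi organoids were not paired there either, although T1-mes and T2-epi came from adjacent tumors, and a replicate block used their pairs. Among 33 pairs of replicates the lowest chi-square per gene was 2.53, above counting error. Alternatives were DESeq2 1.42.0, RLE normalization, no filter, all libraries in a shared fit, a replicate block and leaving out each library. Leaving out TBP clone 1 or T1-mes from the counts of list genes, and the interaction term, were added after the data were seen.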

Additional observations from a re-analysis of the deposited data

Results flagged for a closer look

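None of the 10 genes had a tumor library that stood apart from the other tumors by Dixon's criterion (limit 0.625 for 6 libraries). OSE organoid line 2 held 41 counts of *Dcn* and 29 of *Fstl1*, and line 1 held 1 and 0, while all 3 oviductal lines held 3 counts of *Dcn* or fewer and no count of *Fstl1*. Whether the difference between organoids and tissue was unequal for oviduct and OSE could not be tested for any of the 9 members that passed the filter over these 4 groups, since for each of them the organoids of at least 1 origin lay at or under 3 counts in every library. What gave the counts in OSE organoid line 2 was not tested.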

How the results depend on the processing

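Sorting of the 10 genes into those raised in mes organoids (6) and in tumors (10) gave the same counts with RLE normalization and raw totals, and 7 and 10 with the median of the epithelial cultures as the limit. Between the tissues, 6 members were called under every alternative except the fit of all 27 libraries, which called 5 without *Lum*. The 6 include *Postn* and *Ddr2*, which passed the main filter through oviduct tissue alone. In the fit of all 27 libraries the genes called went from 4495 to 2970. *Fstl1*, which was not called, changed sign to -0.027 with no filter, and ranged from -0.19 to 0.40 without a library, below 0 without oviduct tissue 3 (-0.05), OSE tissue 2 (-0.13) or OSE tissue 3 (-0.19). Between OSE organoids and OSE tissue, leaving out a library gave 1768 to 5750 genes (3387 in the main fit) and 4 to 9 members (9). Between oviductal and OSE organoids, 8 genes became 264 with DESeq2, 116 with no filter, 251 with all libraries in a shared fit and 0 to 1448 without a library, and members called went from 0 to 1 with DESeq2, 2 with the shared fit and 0 to 2 without a library (1060 genes had an unadjusted p under 0.05 in edgeR). Between mes and epi organoids, 110 genes became 534 with DESeq2, 283 with no filter, 555 with the shared fit and 0 to 1458 without a library. Tumors against TBP clones went from 3333 to 5251 genes with the shared fit, and tumors against mes organoids from 1679 to 580 to 1552 without a library. Where a library was left out of a group of 2, the remaining library was taken to vary like the other group.

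With the replicate number as a block (replicate block), 1101 genes were called between OSE organoids and tissue, 0 between oviductal and OSE organoids, and 240 between mes and epi organoids. No other count of genes called moved by over 1.5 times. The numbers of tissues and normal organoids do not pair the libraries, so fewer calls there are not weaker effects. T1-mes and T2-epi came from adjacent tumors of the same clone, which the paper shows with an image of a mouse injected on both sides. T3-mes and T4-epi share a sample record, and whether they came from the same mouse is not given. With 2 libraries per group the deviations mirror each other, so both pairs have the same r (0.0793). It cannot decide whether the pairs belong together. With 2 libraries of mes organoids, and 3 counts as the limit of detection, low genes such as *Fap* and *Pdgfrb* are the least certain. For each of these changes the cause was not tested.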
